A study of Homo sapiens with 6 samples.

Results

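The phospholipase A2 and eicosanoid enzymes described here are 10 genes, taken by name from the 58735 genes of the deposited table: PLA2G4A, PLA2G6, PTGS1, PTGS2, PTGES, PTGES3, ALOX5, ALOX5AP, LTA4H and TBXAS1. They were measured by RNA-seq in 6 libraries of cells labelled CCRF-SB, an established line of lymphoblast-like B cell acute lymphoblastic leukemia cells from peripheral blood. The 3 siControl libraries came from cells carrying an empty lentiviral vector (genotype WT). The 3 siANXA1 libraries came from cells in which a lentiviral silencing RNA lowered ANXA1 (genotype ANXA1 down-regulated). All cells grew in RPMI-1640 with fetal bovine serum, and all are labelled day 5. Puromycin selection is described for the cells with the silencing RNA. The labels name 1 cell line and do not say whether replicates were separate cultures, and a p-value here speaks only to the spread among these libraries, which may be technical.

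Eicosanoids are short-lived lipid signals made from arachidonic acid. A phospholipase A2 frees the acid from membrane phospholipid, cyclooxygenases turn it into prostaglandin H2 for the prostaglandin and thromboxane synthases, and 5-lipoxygenase turns it into leukotriene A4. Annexin A1 was first described, under the name lipocortin, as a glucocorticoid-induced inhibitor of phospholipase A2, which is why these enzymes are of interest when ANXA1 is lowered. Platelets, monocytes, neutrophils and mast cells are the blood cells best known for making eicosanoids.

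Library depth, as counts that carry a gene, was lowest at 21333951 (siANXA1 replicate 2) and highest at 44148505 (siANXA1 replicate 1). The target of the silencing, ANXA1, averaged 3716 ± 34.3 CPM (counts scaled to library size, with TMM factors) among siControl libraries and 1680 ± 64.3 CPM among siANXA1 libraries (SD, n = 3 each), and no siANXA1 library reached the siControl range (log2 fold change -1.145 ± 0.093 SE; edgeR adjusted p = 0.057, DESeq2 adjusted p = 3.21e-07). B cell markers were near 0 against the label: of 12, IGHM, VPREB1 and IGLL1 had no count, and only 2 averaged 1 CPM or more. The 12 erythroid markers summed to between 748 and 1832 CPM in siControl and between 3973 and 5963 CPM in siANXA1. Most of that gap was HBE1, embryonic globin (4.74, 637 and 9.82 CPM in siControl; 3286, 2140 and 2973 CPM in siANXA1). Without HBE1 the sums ran from 729 to 1822 CPM and from 1833 to 2677 CPM, and 8 of the 12 markers overlapped between the groups. The 10 megakaryocyte and platelet markers summed to between 48.8 and 82.5 CPM and between 82.7 and 105 CPM. Of these, 6 averaged 1 CPM or more, led by GP1BB (35.9 CPM) and TUBB1 (20.9 CPM), while PF4 and GP9 held 2 counts in 1 library and 0 in the others. The 12 monocyte and neutrophil markers overlapped (49.98 to 84.6 and 48.4 to 57.6 CPM). Here 5 averaged 1 CPM or more, led by LYZ (36.8 CPM) and SPI1 (15.9 CPM), while ELANE and MPO, markers of neutrophil precursors, were at 0 in 4 libraries. The 8 mast cell and eosinophil markers also overlapped (21.8 to 66.8 and 12.3 to 39.3 CPM). Among them 4 averaged 1 CPM or more, led by PRG2 (24.0 CPM) and KIT (4.08 CPM), while CPA3, TPSAB1 and CCR3 were at 0 in every library. The 8 T cell markers overlapped too (10.9 to 38.0 and 14.9 to 23.8 CPM). Of these, CD3D averaged 21.4 CPM and CD2 and CD8A had no count. In bulk RNA, fewer cells of a type and less RNA per cell cannot be told apart, and the part of these markers in the results below was not tested. On the first principal component (39.9% of the variance), siControl replicates 1 and 2 and siANXA1 replicate 2 formed 1 side, and the other 3 libraries formed the other. These 2 sides are given below for the 10 genes, and as counts for the wider lists. A log2 difference within a side sets siANXA1 replicate 2 against siControl replicates 1 and 2, or siANXA1 replicates 1 and 3 against siControl replicate 3. Each thus rests on 1 library in 1 of the groups, and its sign is a description only. In 39.8% of the genes tested the 2 sides did not overlap.

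Of the 10 genes, 8 passed the filter on low counts and were tested, while PTGES and ALOX5AP did not. None of the 8 passed an adjusted p of 0.05 in edgeR's quasi-likelihood test over all genes, where 0.0111% of the 17947 genes tested did. PTGS1 alone had an unadjusted p under 0.05, against 7.93% of all genes, or 4.52% in its direction, lower in siANXA1. PTGS1 was also the only one of the 8 whose groups did not overlap in CPM, against 14.6% of all genes, 7.24% with siANXA1 lower and 7.41% with siANXA1 higher. The median log2 fold change of the 8 was -0.08, with 4 negative and 4 positive, and that of all tested genes was 0.01, with 49.5% negative. DESeq2 called none of the 10 (0.834% of its genes with an adjusted p were called), and limma-voom called none.

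Levels of different genes were compared per transcript length, as TPM (transcript abundance scaled to length and library total). PTGES3 was the most abundant, at 587 ± 64.3 TPM over all 6 libraries (SD, n = 6), followed by LTA4H at 90.9 ± 18.1 TPM and PLA2G4A at 55.7 ± 4.38 TPM. The ranges of these 3 did not overlap. PLA2G6 (9.91 ± 5.66 TPM), ALOX5 (8.60 ± 3.95 TPM), TBXAS1 (4.27 ± 1.35 TPM), PTGS2 (2.43 ± 1.27 TPM) and PTGS1 (1.84 ± 0.618 TPM) came next, and each overlapped its neighbour in that order. PTGES and ALOX5AP lay below the other 8, at 0.0967 and 0.0115 TPM on average.

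**Figure D1:**
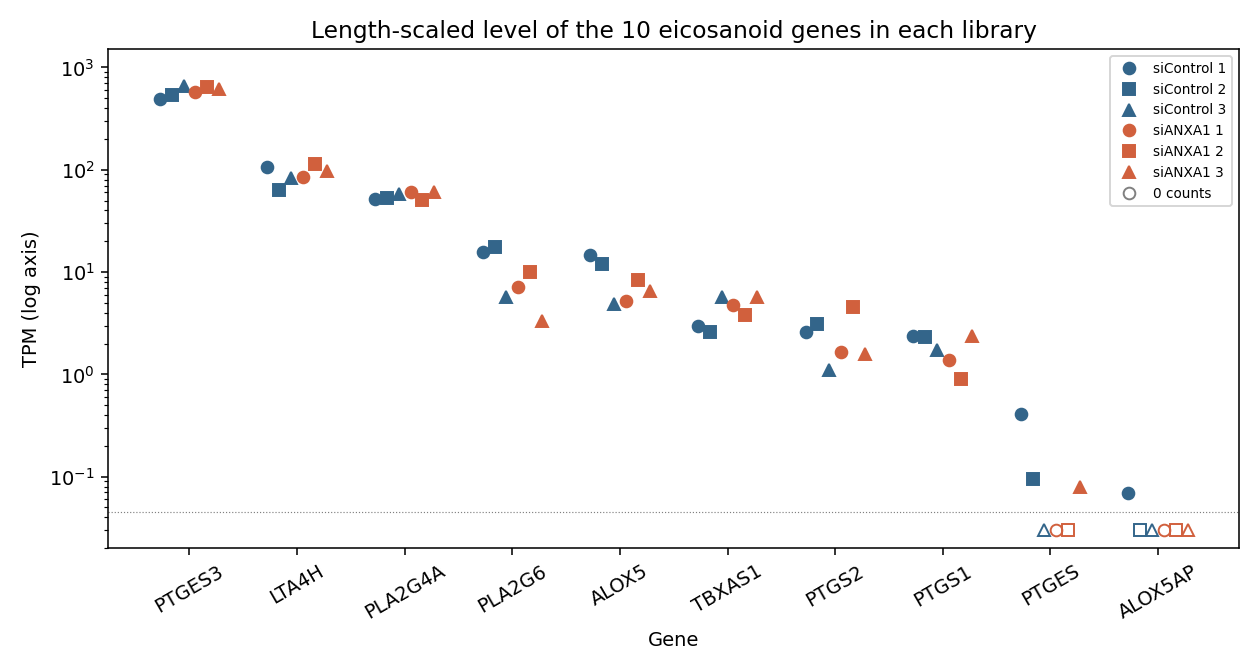
Length-scaled level (TPM, log axis) of each of the 10 genes in each library, ordered by mean; blue is siControl, orange is siANXA1, marker shape is the replicate number, and open markers under the dotted line are libraries with 0 counts. PTGES3, LTA4H and PLA2G4A lie above the other genes and vary least, 5 genes spread between about 1 and 18 TPM, and PTGES and ALOX5AP are at 0 in 3 and 5 libraries.

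PLA2G4A encodes cytosolic phospholipase A2 alpha, the calcium-regulated enzyme that releases arachidonic acid from membranes. The gene spans chromosome 1 from 186828953 to 186988981, plus strand (all positions are on GRCh38). The libraries read 83.6, 86.8 and 93.6 CPM in siControl and 99.7, 79.97 and 96.5 CPM in siANXA1. The highest and lowest values both belonged to siANXA1, so the groups overlapped. The group levels were 88.0 ± 5.09 CPM and 92.1 ± 10.6 CPM (SD, n = 3 each). The log2 fold change was 0.07 ± 0.15 (SE), with a 95% interval from -0.30 to 0.43 (edgeR adjusted p = 0.904). Its level in siANXA1 was 105% of that in siControl while ANXA1 stood at 45.2%. All but 13 of its counts, in siANXA1 replicate 3, were given to the coding transcript ENST00000367466, which encodes 749 amino acids, so this value does not rest on a division between isoforms.

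PLA2G6, the calcium-independent phospholipase A2 beta, lies on chromosome 22 from 38111495 to 38205690 on the minus strand. It read 10.5, 10.5 and 3.98 CPM in siControl and 4.74, 7.67 and 2.65 CPM in siANXA1. The 3 highest libraries were siControl replicates 1 and 2 and siANXA1 replicate 2, which share a side of the first principal component. PLA2G6 had a log2 fold change of -0.73 ± 0.53 (SE), with a 95% interval from -2.01 to 0.54 (edgeR adjusted p = 0.727). Within the 2 sides the log2 difference was -0.45 and -0.17. MAFF, a small MAF transcription factor gene that overlaps PLA2G6 on the other strand, held 769, 743 and 242 counts in siControl and 229, 363 and 194 in siANXA1. PLA2G6 itself held 440, 422 and 133 counts and 206, 168 and 97. The genes overlap in their spans, but share 0 exon bases in GENCODE 29. Its 806 amino acid transcript ENST00000332509 took 51.0% ± 3.32 of the gene's counts in siControl and 58.1% ± 10.5 in siANXA1 (SD, n = 3 each), and the 752 amino acid ENST00000402064 took at most 7.14% in a library.

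The 2 cyclooxygenase genes PTGS1 and PTGS2 encode the constitutive and the inducible enzyme that make prostaglandin H2. Their promoters are shown because PTGS1 was the 1 gene whose groups separated in counts and PTGS2 moved with the sides of the libraries. Each sequence runs from 250 bases before to 50 bases after the RefSeq start site (GRCh38.p14), and capitals mark matches, on either strand, to 6 motifs. The GC box was searched as GGGCGG and the TATA box as TATAAA. Part of a cyclic AMP response element was searched as CGTCA. The C/EBP motif was TTNNGNAAT. The C/EBP-ATF motif was TGATGNAAT. The NF-kB motif was 3 G, any 5 bases, then 2 C.
PTGS2, chr1:186680374-186680673, minus strand: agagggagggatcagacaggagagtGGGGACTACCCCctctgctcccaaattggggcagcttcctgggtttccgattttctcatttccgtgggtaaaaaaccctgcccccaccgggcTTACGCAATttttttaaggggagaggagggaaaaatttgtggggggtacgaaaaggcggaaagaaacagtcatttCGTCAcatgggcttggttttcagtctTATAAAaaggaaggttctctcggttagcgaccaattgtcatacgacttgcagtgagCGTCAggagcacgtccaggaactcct
PTGS1, chr9:122370283-122370582, plus strand: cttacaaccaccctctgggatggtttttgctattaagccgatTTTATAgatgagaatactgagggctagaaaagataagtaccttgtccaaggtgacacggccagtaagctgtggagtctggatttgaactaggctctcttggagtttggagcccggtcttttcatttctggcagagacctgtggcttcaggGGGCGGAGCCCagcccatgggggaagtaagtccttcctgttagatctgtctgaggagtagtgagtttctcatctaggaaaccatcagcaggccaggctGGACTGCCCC
PTGS2 held a TATAAA at position -32 from the start site, a TTNNGNAAT at -133, 2 CGTCA and 3 overlapping NF-kB matches, and no GGGCGG. PTGS1 held 1 GGGCGG at -58, 1 TATAAA at -208 read on the other strand and 3 NF-kB matches, of which 2 overlap each other and the GGGCGG. Of all 35116 RefSeq promoters of this length, 11.5% held TATAAA, 10.998% TTNNGNAAT, 24.6% CGTCA, 58.7% the NF-kB motif and 45.0% GGGCGG. TGATGNAAT, in 0.991% of them, was in no promoter of the 9 genes that matched the table. PTGS2 held 12 CpG dinucleotides and PTGS1 held 4, against a median of 14. A match to a motif is only a description of these letters. RefSeq lists a further PTGS1 start downstream, not shown here. Of the counted PTGS1 transcripts, only ENST00000540753 starts within the window shown, at 122370542. It held 2, 0 and 40 counts in siControl and 0, 0 and 13 in siANXA1. ENST00000362012, ENST00000614910, ENST00000223423 and ENST00000643576 start between 122371005 and 122371085, past the end of the window. The PTGS1 letters are thus not the start region of the transcripts that held most of its counts.

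PTGS1, on chromosome 9 from 122370530 to 122395703 (plus strand), read 6.055, 5.78 and 3.44 CPM in siControl and 1.96, 2.51 and 2.59 CPM in siANXA1. All 3 siANXA1 libraries were below all 3 siControl libraries, and siControl replicate 3 was nearest to them. The levels were 5.09 ± 1.43 and 2.35 ± 0.347 CPM (SD, n = 3 each), so that 46.2% remained. The log2 fold change was -1.11 ± 0.32 (SE), with a 95% interval from -1.89 to -0.34, but the edgeR adjusted p was 0.605 and the DESeq2 adjusted p 0.139. The difference therefore did not pass the test over all genes. An exact permutation test of the single gene gave p = 0.1 (two-sided), the smallest that 3 against 3 libraries allow. Within the sides of the first principal component the log2 difference was -1.22 and -0.60. The permutation p and both negative signs follow from siANXA1 lying below siControl in every library, so they are no further support. The counts behind these values were low, at 253, 233 and 115 in siControl and 85, 55 and 95 in siANXA1.

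Per transcript length the PTGS1 groups did overlap, at 2.37, 2.31 and 1.71 TPM in siControl and 1.37, 0.910 and 2.39 TPM in siANXA1. The highest value in TPM was siANXA1 replicate 3, which was among the lowest in CPM. In that library 86.3% of PTGS1 counts were assigned to ENST00000643576, a retained intron transcript of 1894 bases, which held at most 1.29% in the other 5. In siControl replicates 1 and 2, 88.9% and 64.4% went to the 599 amino acid transcript ENST00000362012 of 5020 bases, which held no count in the other 4 libraries. The separation of the groups in PTGS1 thus held for counts and not for length-scaled levels.

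PTGS2 lies on chromosome 1 from 186671791 to 186680427 on the minus strand, the nearest of the other 9 genes to PLA2G4A. It read 6.49, 7.12 and 1.47 CPM in siControl and 3.57, 7.90 and 2.13 CPM in siANXA1. The high libraries were siControl replicates 1 and 2 and siANXA1 replicate 2, so both groups held high and low libraries. The highest was 5.38 times the lowest, the widest range among the 8 tested genes. PTGS2 had a log2 fold change of -0.16 ± 0.71 (SE), with a 95% interval from -1.86 to 1.55 (edgeR adjusted p = 0.954). Changes within that interval, in either direction, were not excluded. Within the sides the log2 difference was positive in both, at 0.22 and 0.89, each from 1 library against 2. With the side as a covariate the log2 fold change was 0.57 (edgeR adjusted p = 0.479). In TPM, PTGS1 averaged 2.13 and PTGS2 2.26 in siControl, and 1.56 and 2.60 in siANXA1. The ratio of PTGS1 to PTGS2 ranged from 0.200 to 1.55 over single libraries, above 1 in replicate 3 of each group and below 1 in the other 4.

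**Figure D2:**
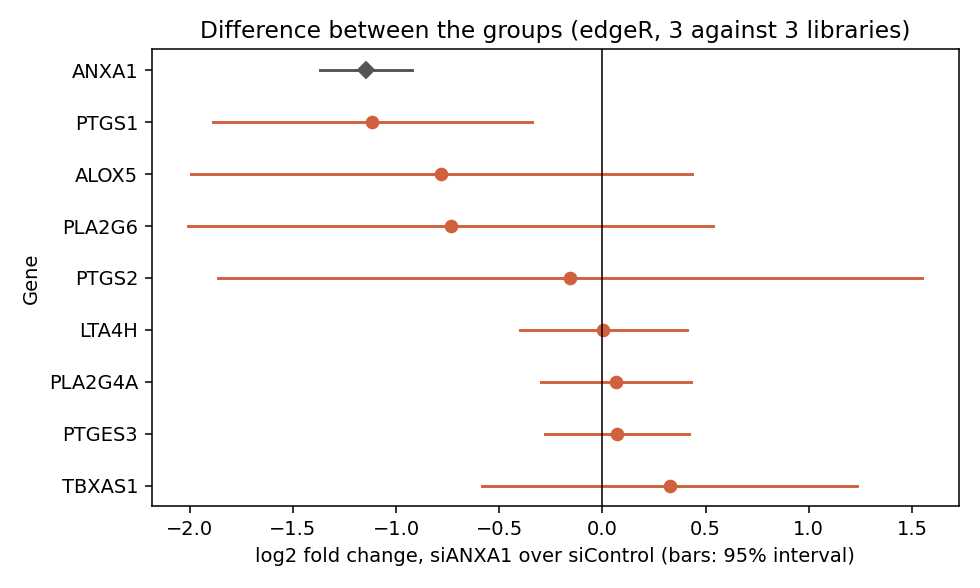
Log2 fold change of siANXA1 over siControl for ANXA1 (grey diamond) and the 8 tested genes (orange circles), with 95% intervals from the edgeR fit of 3 against 3 libraries. The intervals of PLA2G4A, LTA4H and PTGES3 stay within about 0.43 of 0, those of ALOX5, PLA2G6 and PTGS2 are wide, and PTGS1 lies below 0 without passing the adjusted threshold.

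Of the enzymes that act on prostaglandin H2, PTGES, the inducible microsomal prostaglandin E synthase, held 18, 4 and 0 counts in siControl and 0, 0 and 3 in siANXA1. All of these were assigned to the non-coding transcript ENST00000481476, so no coding PTGES transcript held a count. A count of 0 allows up to 3 counts, or between 0.0690 and 0.137 CPM depending on the library, with counting error only. No fold change is given at this depth. TBXAS1, which encodes thromboxane A synthase of platelets and macrophages, lies on chromosome 7 from 139777051 to 140020325. It read 1.99, 1.66 and 3.71 CPM in siControl and 3.20, 2.65 and 3.36 CPM in siANXA1. The lowest values were siControl replicates 1 and 2 and then siANXA1 replicate 2, the libraries in which PTGS2 was highest. For TBXAS1 the log2 fold change was 0.33 ± 0.38 (SE; edgeR adjusted p = 0.808). HIPK2, a kinase gene that overlaps it on the other strand, held between 1706 and 3584 counts a library against 58 to 139 for TBXAS1. The 2 genes share 0 exon bases in GENCODE 29. Its most counted transcript, ENST00000455353, encodes 152 amino acids and took 39.2% ± 0.957 in siControl and 42.4% ± 12.1 in siANXA1 (SD, n = 3 each). The longer ENST00000416849, of 580 amino acids, took 28.3% ± 8.31 and 30.8% ± 15.1.

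PTGES3 encodes p23, named as a cytosolic prostaglandin E synthase and better known as a co-chaperone of HSP90. It lies on chromosome 12 from 56663341 to 56688408 on the minus strand. The libraries read 505, 549 and 686 CPM in siControl and 598, 617 and 613 CPM in siANXA1, the siANXA1 values lying inside the siControl range. Between the groups the log2 fold change was 0.07 ± 0.15 (SE), with a 95% interval from -0.28 to 0.42 (edgeR adjusted p = 0.887). The processed pseudogene PTGES3P1 held between 221 and 623 counts a library and PTGES3P3 between 61 and 251, against 13507 to 25987 for PTGES3; reads shared with these copies could be divided between them.

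The division of PTGES3 counts among its transcripts did separate the groups. ENST00000262033, which encodes the 160 amino acid form, took 29.99%, 26.6% and 30.8% of the counts in siControl and 11.9%, 7.86% and 17.99% in siANXA1. All siANXA1 shares lay below all siControl shares. ENST00000414274, which encodes 130 amino acids, took 37.9%, 38.7% and 35.7% in siControl and 46.5%, 57.3% and 47.2% in siANXA1. Here all siANXA1 shares lay above. The means were 29.1% ± 2.21 and 12.6% ± 5.10 for the first and 37.5% ± 1.53 and 50.3% ± 6.04 for the second (SD, n = 3 each). ENST00000614328, of 164 amino acids, overlapped between groups, at 17.4% to 22.9% and 14.5% to 25.0%. The non-coding ENST00000537473 was higher in all siANXA1 libraries, at 11.4% ± 2.30 and 15.5% ± 2.14 (SD, n = 3 each). The 139 amino acid ENST00000448157 was lower in all of them, at 2.55% ± 0.183 and 2.22% ± 0.114. Among 19095 transcripts with a mean share of 10% or more, in genes with at least 100 counts in every library, 11.5% had groups that did not overlap, and in 6.94% the means also differed by 10 percentage points or more. Separation of this kind was therefore common, and no test of transcript shares was made.

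The 130 amino acid transcript lacks exon 5 of the 160 amino acid transcript, a fully coding exon of 90 bases (30 codons) at chr12:56670275-56670364. The exon is printed in capitals with 30 bases of the neighbouring exons on each side, and then the junction formed without it, because these letters are what tell the 2 transcripts apart within the coding sequence. Both are in the direction of the mRNA and come from the GENCODE 29 transcripts.
PTGES3 with exon 5: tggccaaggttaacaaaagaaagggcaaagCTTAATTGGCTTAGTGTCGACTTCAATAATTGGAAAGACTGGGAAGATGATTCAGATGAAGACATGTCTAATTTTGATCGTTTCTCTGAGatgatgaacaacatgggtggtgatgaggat
PTGES3 without exon 5: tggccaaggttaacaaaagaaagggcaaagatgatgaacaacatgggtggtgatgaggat
Transcripts with the exon together held 62.1%, 61.3% and 64.3% of PTGES3 counts in siControl and 53.5%, 42.7% and 52.8% in siANXA1. Since ENST00000414274 was the only counted transcript without the exon, these shares restate its own from the other side. With counts divided by transcript length, the shares were 56.1% ± 1.38 in siControl and 41.8% ± 6.33 in siANXA1 (SD, n = 3 each). The 2 main transcripts also differ at both ends, and the counts are taken as estimates, so a difference at the exon itself was not measured.

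ALOX5 encodes 5-lipoxygenase, the first enzyme of leukotriene synthesis, on chromosome 10 from 45374176 to 45446119. It read 17.5, 13.5 and 4.40 CPM in siControl and 5.36, 7.86 and 7.40 CPM in siANXA1. siControl replicates 1 and 2 were highest, while siControl replicate 3 was the lowest of all 6. The levels were 11.8 ± 6.70 and 6.87 ± 1.33 CPM (SD, n = 3 each). For ALOX5 the log2 fold change was -0.78 ± 0.50 (SE), with a 95% interval from -1.99 to 0.43 (edgeR adjusted p = 0.698). Within the 2 sides of the first principal component the log2 difference was -0.96 and 0.51, opposite in sign, each from 1 library against 2. With the side as a covariate the log2 fold change was -0.23 (edgeR adjusted p = 0.846). Most ALOX5 counts, 57.1% to 91.5% per library, belonged to the 674 amino acid transcript ENST00000374391.

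ALOX5AP encodes FLAP, the membrane protein that presents arachidonic acid to 5-lipoxygenase. It held 2 counts in siControl replicate 1 and 0 in the other 5 libraries, on chromosome 13 from 30713478 to 30764426. ALOX5 itself held between 147 and 730 counts in the same libraries, so the 2 partners of leukotriene synthesis differed in being detected. LTC4S, leukotriene C4 synthase, did not pass the filter on low counts.

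LTA4H encodes leukotriene A4 hydrolase, which makes leukotriene B4 and is also an aminopeptidase found in most cells. It lies on chromosome 12 from 96000828 to 96043520 on the minus strand. It read 133, 128 and 103 CPM in siControl and 108, 137 and 119.7 CPM in siANXA1, with group levels of 121 ± 15.7 and 122 ± 14.7 CPM (SD, n = 3 each). LTA4H had a log2 fold change of 0.00 ± 0.17 (SE), with a 95% interval from -0.40 to 0.41 (edgeR adjusted p = 0.994).

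Below the LTA4H total, 2 libraries divided its counts in another way. The total was steadier in CPM (103.5 to 137) than in TPM (62.9 to 113), where siControl replicate 2 was the lowest. The 611 amino acid transcript ENST00000228740 took 90.98%, 0.272% and 90.1% in siControl and 26.7%, 89.4% and 90.5% in siANXA1. In siControl replicate 2 the retained intron transcript ENST00000553041 took 68.8%, against 6.97% to 16.6% elsewhere. In siANXA1 replicate 1 the 508 amino acid ENST00000413268 took 27.4% and the 587 amino acid ENST00000552789 took 19.5%. The transcript ENST00000552789 held 16.6% in siControl replicate 2 and no count in the 4 libraries other than these 2. The 2 libraries belong to different groups, and the cause of this division was not tested. A range of 50 percentage points or more over the 6 libraries was found in 20.5% of the 19095 transcripts described above.

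**Figure D3:**
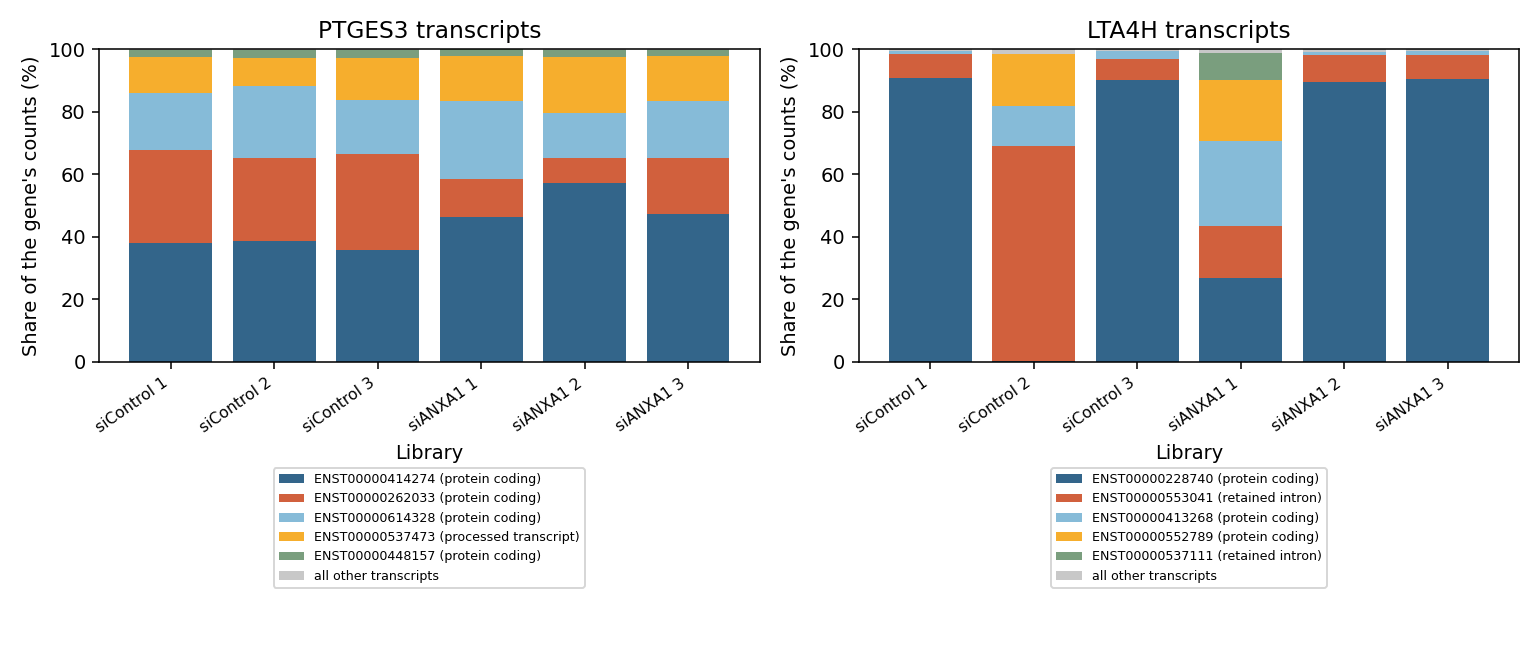
Share of the gene's estimated counts (%) given to each transcript in each library, for PTGES3 (left) and LTA4H (right). In PTGES3 the siANXA1 bars have more of ENST00000414274 (46.5% to 57.3%) and less of ENST00000262033 than the siControl bars; in LTA4H siControl 2 and siANXA1 1 stand apart from the other 4 libraries.

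Across the 8 tested genes, the sides of the first principal component did not overlap in 6: PLA2G6, PTGS2, ALOX5 and LTA4H were higher in siControl replicates 1 and 2 and siANXA1 replicate 2, and TBXAS1 and PLA2G4A were lower there. The mean log2 difference between the sides was 1.65 for PTGS2, 1.35 for PLA2G6 and 1.13 for ALOX5, and 0.27 for LTA4H. It was -0.71 for TBXAS1 and -0.21 for PLA2G4A. The sides were drawn from the same libraries, so these values are a description, to be read against the 39.8% of all genes.

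The wider pathway was read from 7 lists of other genes, 149 in all, of which 107 were tested. None passed edgeR's adjusted threshold, and 10 of the 107 had an unadjusted p under 0.05, near the 7.93% of all genes. DESeq2 called 3, against 0.834% of its genes with an adjusted p: GGT5, PNPLA8 and ANXA1, the target of the silencing itself. The median log2 fold change of the 107 was 0.04, with 47 negative and 60 positive. In 8 all siANXA1 libraries were lower and in 9 all were higher, together 17 of 107, near the 14.6% of all genes. The sides of the first principal component did not overlap in 7 of 18 phospholipase genes, 5 of 11 prostanoid, 4 of 12 leukotriene, 3 of 10 receptor and carrier, 5 of 20 arachidonate supply and 6 of 18 kinase and annexin genes, against 39.8% of all genes. Among them were PAFAH1B2, AKR1C3, RNPEP, COTL1, ABCC1 and ELOVL5.

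Of 33 other phospholipases A2, related lipases and regulators, 18 were tested, 7 negative and 11 positive. PNPLA8, the membrane-bound calcium-independent phospholipase A2 gamma, read 47.3, 52.8 and 31.9 CPM in siControl and 13.0, 24.3 and 13.2 CPM in siANXA1. All siANXA1 libraries lay below all siControl libraries. The log2 fold change was -1.39 ± 0.34 (SE; edgeR adjusted p = 0.605, DESeq2 adjusted p = 0.0335). The most abundant of the list were PRDX6, a peroxiredoxin with phospholipase activity, at 649 and 667 CPM, and PAFAH1B2, a platelet-activating factor acetylhydrolase subunit, at 159 and 161 CPM. No secreted phospholipase A2 of groups IB, IIA, IID, IIE, IIF, V or X passed the filter. Secreted groups XIIA and III did pass, and are named here once their values were known. PLA2G12A (group XIIA) stood at 141 and 144 CPM, and PLA2G3 (group III) at 0.380 and 0.685 CPM. Both overlapped between the groups.

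Of 24 other lipoxygenase and leukotriene genes, 12 were tested, 9 negative and 3 positive, with a median of -0.24. GGT5, the gamma-glutamyltransferase that turns leukotriene C4 into leukotriene D4, held 107, 42 and 33 counts in siControl and 5, 3 and 2 in siANXA1. That is 1.53 ± 0.893 and 0.102 ± 0.0427 CPM (SD, n = 3 each), with no overlap. The log2 fold change was -3.90 ± 0.62 (SE), called by DESeq2 (adjusted p = 0.000203) and not by edgeR (adjusted p = 0.425). The counts in siANXA1 are near the 3 counts that a 0 allows. COTL1, an actin-binding protein that also binds 5-lipoxygenase, stood at 149 and 153 CPM, and the aminopeptidase gene RNPEP, a relative of LTA4H, at 155 and 140 CPM. Of 14 other prostanoid genes, 11 were tested, 5 negative and 6 positive. MGST1, a microsomal glutathione transferase of the same family as PTGES, stood at 48.7 and 65.6 CPM (log2 fold change 0.43 ± 0.19 SE; edgeR adjusted p = 0.634). AKR1C3, which makes prostaglandin F, stood at 28.1 and 31.7 CPM.

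Of 21 receptors and carriers, 10 were tested, 5 in each direction. PTGER3, a prostaglandin E receptor, stood at 102 and 115 CPM, whereas PTGER1, PTGER2 and PTGER4 did not pass the filter. ABCC4 and ABCC1, which export prostaglandins and leukotriene C4, had means of 84.7 and 116 CPM, and of 108 and 113 CPM. ABCC4 was higher in all siANXA1 libraries (log2 fold change 0.45 ± 0.14 SE; edgeR adjusted p = 0.605). TBXA2R, the thromboxane receptor, was picked once its values were known and read 15.4, 6.82 and 11.5 CPM in siControl and 6.23, 4.16 and 6.61 CPM in siANXA1 (edgeR adjusted p = 0.627). Its groups did not overlap, by a small margin in siControl replicate 2. All 20 genes of arachidonate supply and reacylation were tested, 11 negative and 9 positive, with ELOVL5, a fatty acid elongase, at 433 and 428 CPM and the desaturase gene FADS1 at 301 and 292 CPM. MBOAT2, a lysophospholipid acyltransferase, stood at 141 and 193 CPM (log2 fold change 0.45 ± 0.13 SE; edgeR adjusted p = 0.605).

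Of 19 kinases, annexins and related genes that act on cytosolic phospholipase A2 or 5-lipoxygenase, 18 were tested, 9 in each direction, with ANXA1 among the negative ones. The HSP90 list, drawn up around PTGES3, holds 18 genes: HSP90 forms, chaperones and co-chaperones, and the client genes TERT and NR3C1. All were tested and none passed the edgeR threshold. The log2 fold change was positive in 17, with a median of 0.23, where 49.5% of all genes were negative. In 12 of the 18 the sides of the first principal component did not overlap, against 39.8% of all genes. All 12, HSP90AB1 and the client TERT among them, were lower in siControl replicates 1 and 2 and siANXA1 replicate 2. The higher side held 2 siANXA1 libraries and 1 siControl library, and its part in the direction of this list was not tested. HSP90AB1 read 4924, 4962 and 6737 CPM in siControl and 7002, 5913 and 7086 CPM in siANXA1. HSP90B1, the endoplasmic reticulum form, read 1980, 2026 and 3139 CPM in siControl and 3375, 3813 and 3592 CPM in siANXA1 (edgeR adjusted p = 0.610). siControl replicate 3 lay nearer to the siANXA1 libraries than to its own group in this gene.

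**Figure D4:**
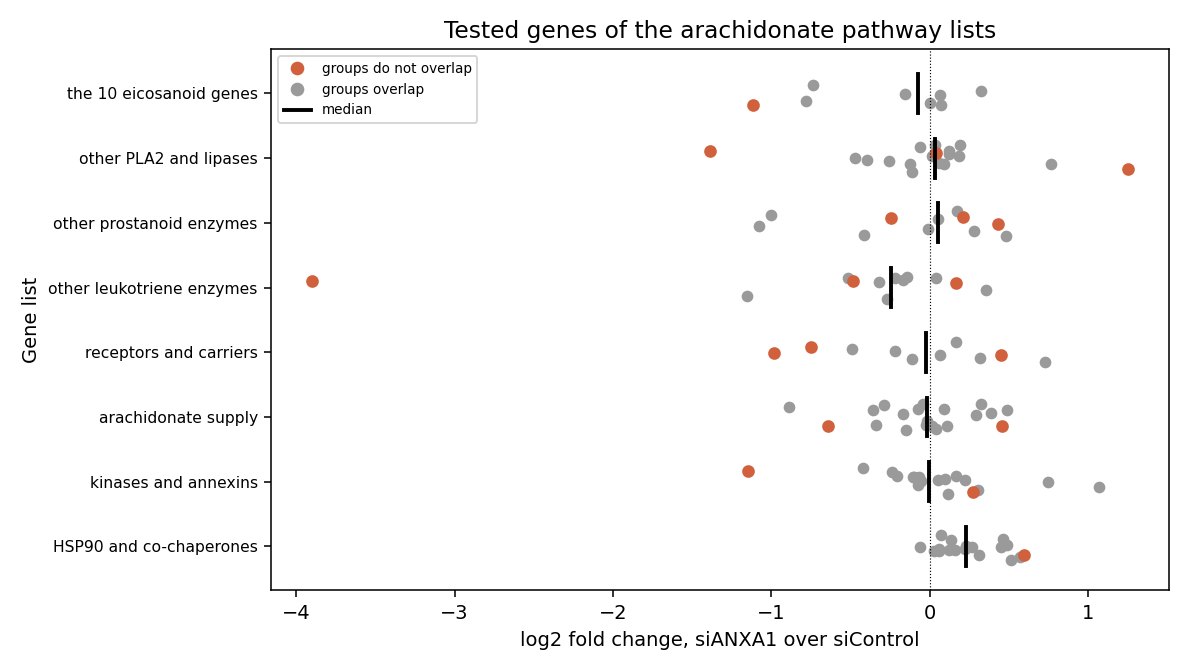
Log2 fold change of siANXA1 over siControl for every tested gene of the 10 eicosanoid genes and the 7 wider lists; orange points are genes whose groups did not overlap, grey points overlapped, and black bars are medians. Most lists centre near 0, the HSP90 list lies to the right (17 of 18 positive), and GGT5 stands alone at -3.90.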

How the data were processed

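The deposited values are expected counts (estimated per transcript, whole numbers, not normalized), held in 2 tables of which 1 adds annotation. All 1335690 values are equal in both. That they are estimates is a reading of counts given per transcript and was not checked, since whole numbers do not show it. For the aligner, counter and strand setting nothing is stated in the labels. The submitters' processing notes name only the mouse build mm10, but the rows are human transcripts, and the 10 genes and ANXA1 had the positions of GENCODE 29 on GRCh38. Rows without a gene, 16.9% to 17.7% of each library's counts, were left out.

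Counts were summed per gene and tested over all genes in R 4.3.3 using edgeR 4.0.16 (TMM scaling, low counts removed by filterByExpr, robust quasi-likelihood fit, group as the only term, Benjamini-Hochberg adjustment). The SE is the log2 fold change divided by the square root of the F statistic. TPM used the transcript lengths the authors deposited. DESeq2 1.42.0, limma 3.58.1 (voom), other scalings and filters, the most abundant transcript per gene, the replicate block, a principal component covariate and each library left out were alternatives. The genes and lists were chosen with earlier results of these data known. Named besides the 10 genes are ANXA1 and, per list, the 2 most abundant genes and the one with the smallest p (or up to 4 past the threshold, where any were), and per member at 5 CPM or more the 2 genes closest in pattern. A gene that this rule names is not reported here. On simulated counts for siANXA1 against siControl over 17947 genes, the share recovered was 0 of 67 at a 2-fold change, 24 of 67 at 4-fold and 45 of 66 at 8-fold, and 4 calls were false. Within groups, every pair of libraries differed by more than sampling noise (chi-square per degree of freedom from 76.9 to 208). Figures were drawn with matplotlib 3.10.9.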

Additional observations from a re-analysis of the deposited data

How the results depend on the processing

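None of the 8 tested genes was called in any alternative in which it was tested (smallest adjusted p 0.139, PTGS1 in DESeq2), and 103 of 116 such values kept their direction. PTGS1 ranged from -1.34 to -0.91 on the log2 scale and was not tested under the strict filter or with the most abundant transcript. PTGES3 stood at 0.50 and LTA4H at 0.28 with the most abundant transcript, neither called. LTA4H turned negative with upper quartile scaling (-0.056), DESeq2 (-0.0026), limma-voom (-0.011), no filter (-0.022) and the strict filter, which asked for 10 counts in 3 libraries and 5 CPM on average (-0.028). Leaving out 1 library gave -1.18 to -0.39 for ALOX5 (lowest without siControl replicate 3, highest without siControl replicate 1), -1.17 to -0.43 for PLA2G6 (lowest without siANXA1 replicate 2, highest without siANXA1 replicate 3) and 0.10 to 0.75 for TBXAS1 (lowest without siControl replicate 2, highest without siControl replicate 3). It gave -0.10 to 0.085 for LTA4H, -0.81 to 0.19 for PTGS2 and -0.025 to 0.20 for PTGES3: LTA4H was negative without siControl replicate 3 (-0.10) and siANXA1 replicate 2 (-0.09), PTGS2 positive without siControl replicate 1 (0.06), siANXA1 replicate 3 (0.19) and siControl replicate 2 (0.17), and PTGES3 negative without siControl replicate 1. With the side of the first component as covariate PTGS2 turned to 0.57 and PLA2G4A to -0.012. The cause was not tested. The share of PLA2G4A counts in its main transcript differed by -0.12 percentage points, and by -0.41 with length-scaled counts.

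Of all genes, 2 were called higher and 0 lower. DESeq2 called 69 and 91, and limma-voom, no filter and the strict filter each called 1 lower. The most abundant transcript gave 0 higher and 1 lower, and the covariate 4 and 1. Leaving out 1 library gave 0 to 4 higher and 0 to 3 lower, with 4 and 3 without siControl replicate 3. Wider pathway genes called were 0, and 3 in DESeq2, 1 in limma-voom, 1 under the strict filter, 1 with the covariate, and 0 to 1 without 1 library. Wherever 1 was called, it was ANXA1, the target of the silencing, which these lists include. With the replicate number as a block 0 genes were called higher and no member was called. Same-numbered libraries deviated together for numbers 2 and 3 (r = 0.26 in both) and not for number 1 (r = -0.11), so the numbers were not taken as pairs. At the depth of these libraries PTGES and ALOX5AP could not be tested.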

Other observations

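The deposited annotation places 124 genes in the KEGG pathway of arachidonic acid metabolism, of which 35 were tested, a list looked at after the data were seen. Of these, 21 had a negative and 14 a positive log2 fold change, with a median of -0.14 against 0.01 for all genes. None passed edgeR's adjusted threshold, 3 had an unadjusted p under 0.05 (7.93% of all genes did), and 4 had groups that did not overlap (14.6% of all genes did): GGT5, PTGS1, PTGES2 and the read-through gene JMJD7-PLA2G4B.

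Among 9849 other protein coding genes at 5 CPM or more, those whose log2 CPM followed a member most closely over the 6 libraries were ZNF81 and LYRM2 for PLA2G4A (Pearson r = 0.999 and 0.994), NELFA and RIOK3 for PLA2G6 (0.997 in both), and MCFD2 and GPR107 for ALOX5 (0.998 and 0.992). They were KDM6A and MECR for LTA4H (0.992 and 0.989) and ARMC1 and ZNF254 for PTGES3 (0.993 and 0.990). Between 42 and 157 genes per member exceeded an r of 0.95, and the 6 libraries share the 2 sides described above.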
